A study of Homo sapiens with 37 samples.

Results

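The insulin-like growth factor binding proteins (IGFBPs) were examined in RNA-seq libraries of cultured human cells in which senescence had been induced in several ways. The 6 members, IGFBP2, IGFBP3, IGFBP4, IGFBP5, IGFBP6 and IGFBP7, belong to the IGFBP gene family. They were chosen with earlier results of these data known and found by matching Ensembl gene identifiers to symbols. IGFBP1, also of this family, was not among them and is given with the pathway genes. All 6 were among the 57773 genes in the count tables and all 6 passed the filter on low counts in every comparison. The 37 libraries fell into 17 groups. HAEC (human aortic endothelial cells) at PDL 4 to 6, where PDL is the population doubling level, had received 4 Gy of ionizing radiation (3 libraries) or none (2 libraries). HUVEC (human umbilical vein endothelial cells) at PDL 3 to 5 had received 4 Gy (3 libraries) or none (3 libraries). IMR-90, a diploid lung fibroblast line, was given 10 Gy at PDL 15, grown to exhaustion at PDL 52, or sampled while proliferating at PDL 15 (2 libraries each). WI-38, another diploid lung fibroblast line, was sampled at PDL 25 in a first experiment after 2 µg/mL doxorubicin for 24 h against a control, and after lentiviral HRAS G12V against an empty vector, both viruses at 10 MOI and both with 1 µg/mL puromycin (2 libraries each). In a second WI-38 set the same doxorubicin treatment was repeated against its own control, cells given 10 Gy were set against a radiation control, and replicatively exhausted cells at PDL 53 to 55 were set against proliferating cells at PDL 25 (2 libraries each). The labels do not say whether libraries of a group came from separate cultures, so each p-value measures only the spread between these libraries, which may be technical. The libraries were prepared from total RNA depleted of ribosomal RNA.

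IGFBPs are secreted proteins that bind IGF1 and IGF2 outside the cell, lengthen their life and control how much ligand reaches the type 1 IGF receptor. Proteases such as PAPPA cut IGFBP4 and IGFBP5 and free the bound ligand, and the stanniocalcins STC1 and STC2 inhibit PAPPA. Several IGFBPs are known parts of the mixture of proteins that senescent fibroblasts and endothelial cells secrete. IGFBP3 is the main IGF carrier of blood, IGFBP6 prefers IGF2, and IGFBP7 binds IGFs weakly and is abundant in vascular endothelium.

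The stretch just before the start site is shown for the 4 members with a single start site in the table used, so that the members can be set side by side at the place where transcription begins. Each line gives the 100 bases before the start site, 5′ to 3′ on the gene's strand, from RefSeq on GRCh38.p14, and the capitals mark a TATA-type hexamer on the gene's strand, with its letters given under the sequences, or a GC box (GGGCGG on either strand, so that CCGCCC is its reverse complement). Promoters were matched for 5 of the 6 members, all but IGFBP7, and IGFBP2 had 3 start sites. The stretches lie at chr7:45921273-45921372 (minus strand), chr17:40443350-40443449 (plus strand), chr2:216695550-216695649 (minus strand) and chr12:53097567-53097666 (plus strand).
IGFBP3: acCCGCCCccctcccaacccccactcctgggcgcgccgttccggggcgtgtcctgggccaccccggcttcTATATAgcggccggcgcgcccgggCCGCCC
IGFBP4: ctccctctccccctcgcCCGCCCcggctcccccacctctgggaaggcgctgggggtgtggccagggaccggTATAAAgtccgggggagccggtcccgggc
IGFBP5: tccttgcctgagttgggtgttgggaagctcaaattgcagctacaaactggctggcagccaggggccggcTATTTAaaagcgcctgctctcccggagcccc
IGFBP6: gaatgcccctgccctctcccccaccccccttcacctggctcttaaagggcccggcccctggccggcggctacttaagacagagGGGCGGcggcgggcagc
IGFBP3 had TATATA at -30, IGFBP4 had TATAAA at -29 and IGFBP5 had TATTTA at -31, counted from the start site. Of 35116 promoters in the table, 3.45% began 1 of these 3 hexamers between -35 and -25. Anywhere in the 300 bases around the start site and on either strand, TATAAA was in 11.5% of all promoters, TATATA in 3.99% and TATTTA in 12.6%. The GC box was in 45.0% of promoters of that length and in those of IGFBP3, IGFBP4 and IGFBP6 and 2 of the 3 of IGFBP2. The E-box CACGTG, in 7.26% of all promoters, and the AP-1 motif TGANTCA, in 7.71%, were in none of the members' promoters. These matches describe letters and not bound sites.

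Library totals were 102293388 to 202974994 counts in the endothelial, IMR-90 and first WI-38 libraries and 205854972 to 370996204 counts in the second WI-38 set. Protein-coding genes held 50.7% to 66.9% of counts in those 25 libraries and 82.0% to 91.1% in the 12 libraries of the second WI-38 set, so levels set across the 2 kinds of library rest on different RNA make-up. Mitochondrial genes held 0.100% to 0.607% of counts in those 25 libraries and 3.21% to 14.02% in the second WI-38 set. Replicate spread (the biological coefficient of variation in edgeR) was narrowest for HAEC (5.69%), HUVEC (6.94%) and IMR-90 (8.41%), wider for the first WI-38 experiment (16.3%) and widest for the second (38.1%). The proliferation marker MKI67 was higher in irradiated than in proliferating IMR-90. It stood at 29.1 ± 2.58 CPM in irradiated and 19.7 ± 3.15 CPM in late-passage cells, against 17.7 ± 1.73 CPM (mean ± SD, n = 2 each) in the libraries labelled proliferating (log2 fold change 0.67, edgeR adjusted p = 7.07e-05 after radiation, and 0.11, edgeR adjusted p = 0.42 at late passage), and it was lower than control in the other 7 comparisons. TOP2A, another proliferation gene, was lower in late-passage IMR-90 (-0.40, edgeR adjusted p = 2.74e-05) and did not pass in irradiated IMR-90 (0.070, edgeR adjusted p = 0.317). HRAS averaged 2185 CPM with the transgene and 51.2 CPM with the empty vector. The 8 endothelium markers summed to 1133 to 1540 CPM in endothelial libraries and 16.1 to 312 CPM in fibroblasts, where TEK made up most of the sum and no other of the 8 passed 3.95 CPM in any library. The 8 fibroblast markers summed to 154 to 289.6 CPM in endothelial libraries, most of it FBN1, and 1473 to 14971 CPM in fibroblasts.

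The IGFBP genes with high RNA levels were not the same in endothelial cells and in fibroblasts. Levels are CPM, counts scaled to equal library size on 1 TMM scale (a normalization for RNA make-up) over all 37 libraries. Ranges and orders over all 17 groups join the second WI-38 set to libraries of other RNA make-up. The places named below for IGFBP5 and IGFBP7 in such orders were the same among the groups outside that set. IGFBP5 ranged from 2.48 to 10.2 CPM in 11 endothelial libraries and from 293 to 4040 CPM in 26 fibroblast libraries, with no overlap. IGFBP4 and IGFBP6 did not overlap either. IGFBP4 spanned 84.4 to 155 CPM in endothelial cells and 250.4 to 3678 CPM in fibroblasts. IGFBP6 spanned 10.7 to 23.4 CPM in endothelial cells and 34.96 to 165 CPM in fibroblasts. The share of all genes whose libraries did not overlap was not counted, here or in the responses below. Such separations therefore stand without a background. The other 3 overlapped: IGFBP2 had medians of 59.1 CPM in endothelial and 5.78 CPM in fibroblast libraries, IGFBP3 of 24.5 and 167 CPM in the same order, and IGFBP7 of 448 and 627 CPM. In a bulk library, fewer cells that express a gene and less RNA per cell cannot be told apart.

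**Figure D1:**
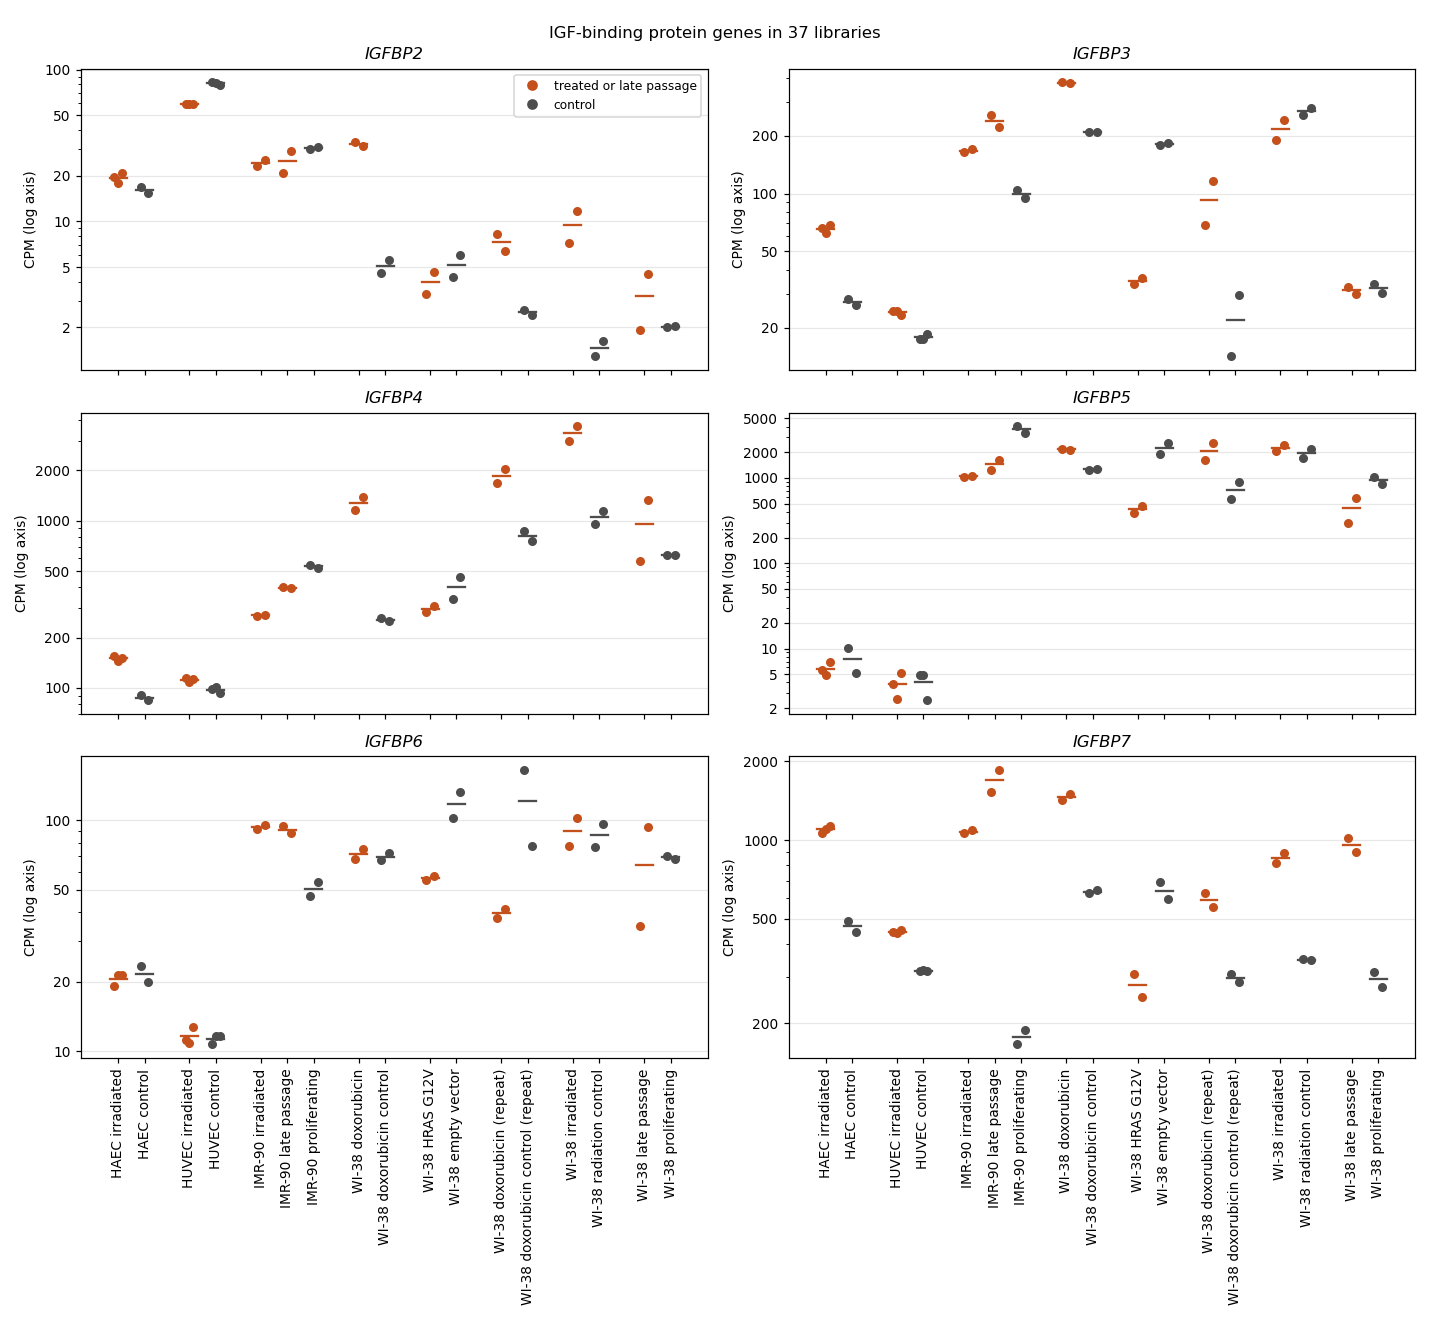
Level of each of the 6 genes in CPM (counts scaled to library size, log axis) in all 37 libraries, 1 panel per gene, with groups on the horizontal axis. Points are libraries and bars are group means, with treated or late-passage groups in orange and controls in grey. IGFBP5 lies at 10.2 CPM or lower in every endothelial library and at 293 CPM or higher in every fibroblast library, while IGFBP7 is high in both kinds of cell.

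Controls alone, a part of the libraries above, gave the same direction as the medians for all members but IGFBP7. Media and culture differed between the sets. In this and the next control comparisons, cell origin and culture therefore cannot be told apart. HAEC and HUVEC controls were set against IMR-90 proliferating cells and the doxorubicin controls of the first WI-38 experiment, all from the 25 libraries of like RNA make-up, and 58.2% of all genes differed in this comparison. IGFBP5 was lower in endothelial controls (log2 difference -8.62 ± 0.25, edgeR adjusted p = 5.31e-20), and IGFBP3 (-2.73 ± 0.055, edgeR adjusted p = 2.42e-23), IGFBP4 (-2.02 ± 0.062, edgeR adjusted p = 1.20e-19) and IGFBP6 (-1.95 ± 0.071, edgeR adjusted p = 4.22e-18) were lower as well. IGFBP2 was higher in endothelial controls (1.52 ± 0.095, edgeR adjusted p = 3.13e-13). The difference of IGFBP7 was 0.18 ± 0.068, edgeR adjusted p = 0.0301, and it no longer passed without HAEC control replicate 1 (adjusted p = 0.106), IMR-90 proliferating replicate 1 (0.161), WI-38 doxorubicin control replicate 1 (0.0787) or WI-38 doxorubicin control replicate 2 (0.05).

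Within each cell type the controls also differed. Between the 2 endothelial types, where 36.7% of all genes differed, HAEC controls were lower than HUVEC controls in IGFBP2 (log2 difference -2.30 ± 0.051, edgeR adjusted p = 1.16e-22), and higher in IGFBP3 (0.64 ± 0.045, edgeR adjusted p = 6.77e-12), IGFBP6 (0.96 ± 0.069, edgeR adjusted p = 9.86e-12) and IGFBP7 (0.59 ± 0.032, edgeR adjusted p = 3.14e-14). IGFBP4 differed by -0.13 ± 0.041, edgeR adjusted p = 0.0152, and IGFBP5 by 0.94 ± 0.24, edgeR adjusted p = 0.00276, with 0.36, adjusted p = 0.382 without HAEC control replicate 1. Between the fibroblast lines, where 40% of all genes differed, IMR-90 proliferating cells were higher than the WI-38 doxorubicin controls in IGFBP2 (2.62 ± 0.18, edgeR adjusted p = 2.30e-09), IGFBP5 (1.58 ± 0.15, edgeR adjusted p = 8.02e-08) and IGFBP4 (1.08 ± 0.12, edgeR adjusted p = 1.30e-06), and lower in IGFBP7 (-1.82 ± 0.13, edgeR adjusted p = 1.86e-09) and IGFBP3 (-1.04 ± 0.10, edgeR adjusted p = 1.67e-07). For IGFBP6 the difference was -0.44 ± 0.12, edgeR adjusted p = 0.0061, and the adjusted p was 0.0969 without IMR-90 proliferating replicate 1 and 0.0788 without WI-38 doxorubicin control replicate 2. The IMR-90 cells were at PDL 15 and the WI-38 cells at PDL 25, so line, PDL and culture cannot be told apart.

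The make-up of the 6 members, with IGFBP1 not counted, was compared per length, as mean CPM per kb of exon. IGFBP7 was the leading member in endothelial cells, with 84.7% of the 6-gene sum in irradiated HAEC, against 78.5% in HAEC controls, and 74.9% in irradiated HUVEC, against 68.8% in HUVEC controls. In IMR-90 the leading member changed: IGFBP7 held 58.5% in irradiated and 62.3% in late-passage cells, against 9.43% in proliferating cells, where IGFBP5 held 59.0%. IGFBP4 led in the second WI-38 set, with 62.6% in irradiated cells, against 44.2% in their controls, except in the mean of late-passage cells, where IGFBP7 held 47.2% and IGFBP4 41.1%. The late-passage libraries were not alike in this. Replicate 1 had 573 CPM of IGFBP4 and 1015 CPM of IGFBP7. Replicate 2 had 1328 CPM of IGFBP4 and 903 CPM of IGFBP7, so the leading member there rests on which library is kept. Within the second WI-38 set the 6-gene sum was highest in irradiated cells, at 2431 CPM per kb, against 1084 CPM per kb in their controls. In the first WI-38 experiment the sum was 398 CPM per kb with HRAS G12V, against 989 CPM per kb with the empty vector. The HRAS G12V sum was the lowest of the fibroblast groups outside the second WI-38 set.

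**Figure D2:**
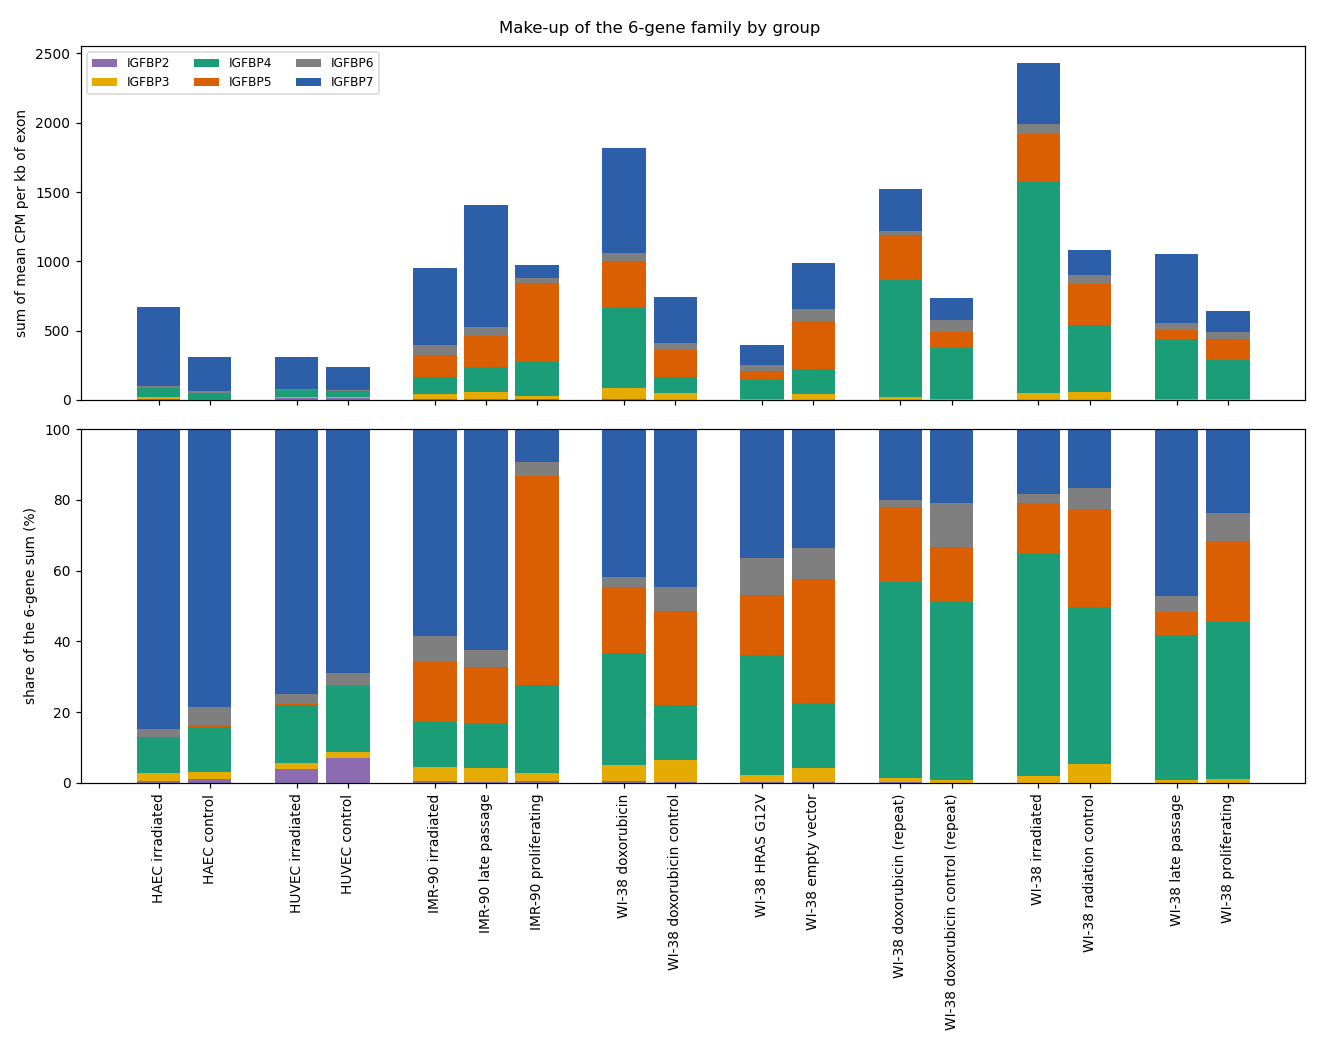
Sum of the 6 genes' mean CPM per kb of exon in each group (upper panel) and each gene's share of that sum in percent (lower panel). Colours stand for genes and groups run along the horizontal axis, treated before control. IGFBP7 fills most of the endothelial bars, and its share is 58.5% in irradiated and 62.3% in late-passage IMR-90, against 9.43% in proliferating IMR-90.

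Each treated or late-passage group was then compared with its own control. Of 54 responses (6 genes in 9 comparisons), 41 had an edgeR adjusted p under 0.05, with 27 higher and 14 lower than control. In irradiated HAEC 4 members were higher and 1 lower, where 39.7% of all genes changed (19.7% higher and 19.9% lower), and in irradiated HUVEC 3 were higher and 1 lower, where 38.7% changed (18.6% higher and 20.1% lower). In IMR-90, 3 were higher and 3 lower after radiation, against 26.6% and 22.5% of all genes (49.1% in all). At late passage IMR-90 again had 3 higher and 3 lower, against 26.6% and 23.5% of all genes (50.1% in all). In the first WI-38 experiment 5 were higher and none lower after doxorubicin, against 13.6% and 13.2% of all genes (26.8% in all), while none was higher and 4 were lower with HRAS G12V, against 27.1% and 18.9% (45.9% in all). In the second set 5 were higher and 1 lower after doxorubicin, against 3.18% and 2.26% of all genes (5.45% in all). After radiation 3 were higher and none lower, against 8.89% and 6.09% (15% in all). At late passage 1 was higher and 1 lower, against 5.8% and 6.82% (12.6% in all). The median log2 fold change of the 6 members was 1.06 after doxorubicin in the first experiment and -0.98 with HRAS G12V, against 0.015 and 0.071 over all genes tested in the same 2 comparisons. In 5 of the 9 comparisons a large share of all genes passed the threshold, and the members' counts there stand against that background. In the doxorubicin repeat 2 to 4 of the 6 passed when any 1 of the 4 libraries was left out, fewest without control replicate 1. With all 37 libraries in 1 fit, 3 members passed in HAEC, 1 in HUVEC and 4 in late-passage WI-38.

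**Figure D3:**
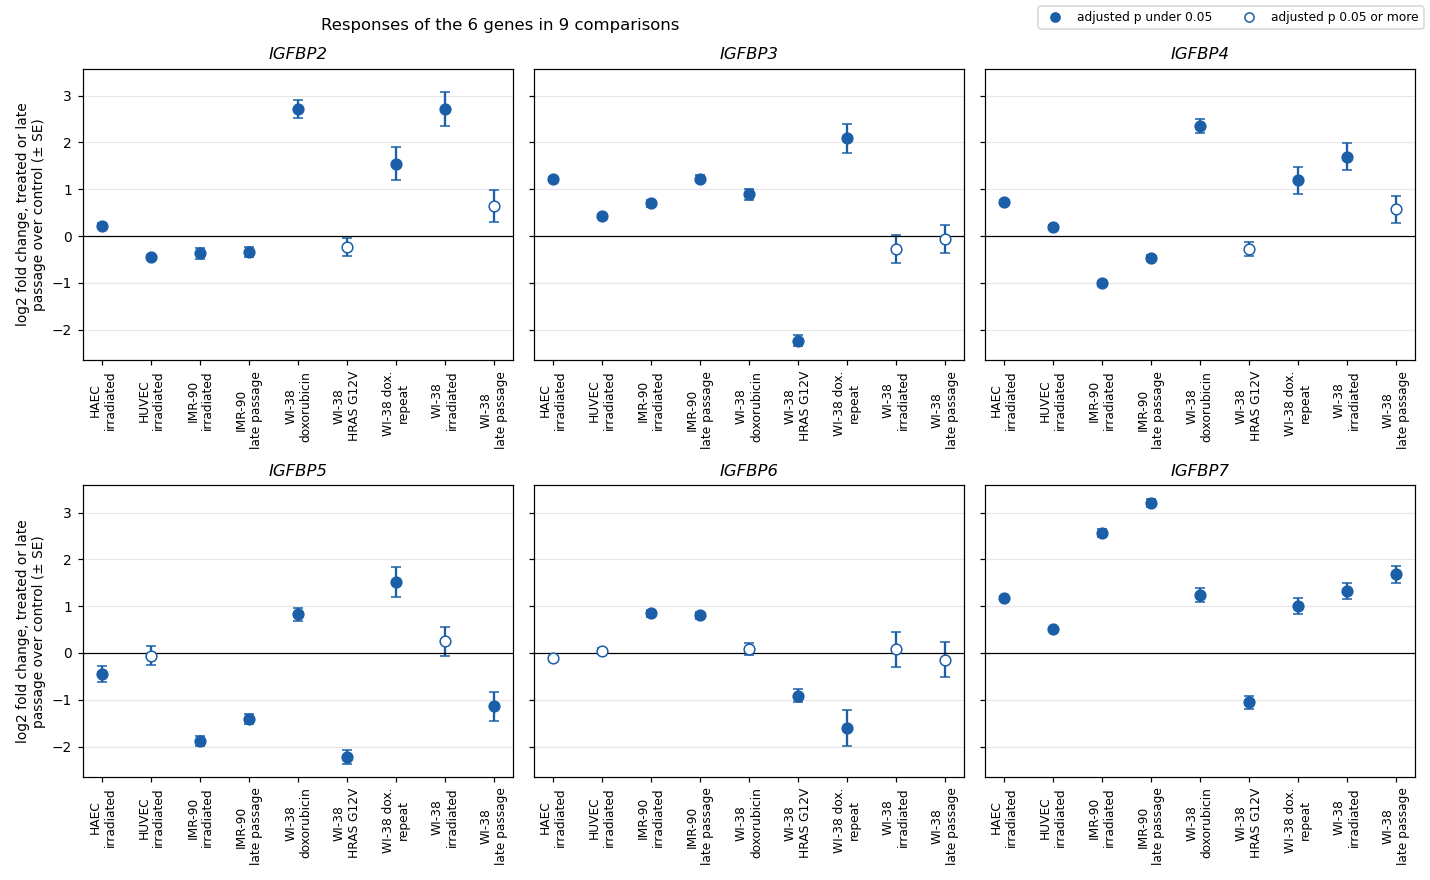
Log2 fold change of each gene, treated or late passage over its own control, in 9 comparisons. Bars are standard errors, filled points have an edgeR adjusted p under 0.05 and open points do not. IGFBP7 lies above 0 in 8 comparisons and below 0 with HRAS G12V, where its log2 fold change was -1.05.

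IGFBP7, a secreted glycoprotein of the vessel wall that has been linked to growth arrest, was the member that changed in the same direction most often. It passed the threshold in all 9 comparisons, higher in 8 and lower in 1. In endothelial cells IGFBP7 stood at 1068, 1099 and 1134 CPM in irradiated HAEC, against 490.1 and 448 CPM in HAEC controls (log2 fold change 1.18 ± 0.030, edgeR adjusted p = 2.30e-17). In HUVEC it stood at 447, 442 and 455 CPM after radiation, against 316, 319 and 317 CPM in controls (log2 fold change 0.50 ± 0.036, edgeR adjusted p = 2.70e-11). Every irradiated endothelial library lay above every control of its own type.

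Its largest changes were in IMR-90. IGFBP7 measured 1060.1 and 1095 CPM in irradiated IMR-90 and 1528 and 1848 CPM in late-passage cells, against 167 and 188 CPM in proliferating cells, the lowest of the 17 groups. The changes were 5.89-fold after radiation (log2 fold change 2.56 ± 0.088, edgeR adjusted p = 2.43e-11) and 9.23-fold at late passage (log2 fold change 3.21 ± 0.090, edgeR adjusted p = 2.98e-12), and both comparisons share the proliferating libraries. Late-passage IMR-90 was also the highest of the 17 groups, and irradiated cells were lower than late-passage cells by 0.65 on the log2 scale (edgeR adjusted p = 2.79e-04), in a comparison where 10.6% of all genes differed.

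In WI-38, doxorubicin gave 1423 and 1502 CPM in the first experiment, against 627 and 645 CPM in controls (log2 fold change 1.24 ± 0.14, edgeR adjusted p = 4.20e-05). The repeat gave 626 and 554 CPM, against 307 and 288 CPM (log2 fold change 0.99 ± 0.17, edgeR adjusted p = 0.00344). The 2 doxorubicin experiments thus differed in level but gave fold changes that did not differ by the test (repeat minus first -0.22, 95% interval -0.68 to 0.23). Irradiated WI-38 measured 818 and 893 CPM, against 350.5 and 349.7 CPM in the radiation controls (log2 fold change 1.32 ± 0.17, edgeR adjusted p = 1.15e-04). Late-passage WI-38 measured 1015 and 903 CPM, against 313 and 276 CPM in proliferating cells (log2 fold change 1.68 ± 0.17, edgeR adjusted p = 1.75e-05). HRAS G12V was the exception, with 309 and 253 CPM, against 689 and 595 CPM with the empty vector (log2 fold change -1.05 ± 0.14, edgeR adjusted p = 7.22e-05). Both HRAS libraries lay below both empty-vector libraries, and in the order of the 17 groups the HRAS group stood next to last, just above proliferating IMR-90.

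Part of the IGFBP7 count could come from neighbours. Its exons overlap POLR2B, a subunit gene of RNA polymerase II on the opposite strand, over 270 bases (13.99% of the exon length) and the antisense RNA gene IGFBP7-AS1 over 94 bases (4.87%), and whether reads were counted by strand is not given in the sources used here, so reads from the 2 strands cannot be told apart. POLR2B moved little, by -0.041 in irradiated HAEC and 0.25 with HRAS G12V on the log2 scale, and by at most 0.63 in the 9 comparisons, at late passage in IMR-90. IGFBP7-AS1 followed IGFBP7: its log2 fold change was 1.27 in irradiated HAEC, 2.55 in irradiated and 3.21 in late-passage IMR-90, 1.25 after doxorubicin in the first WI-38 experiment and -1.06 with HRAS G12V. The level of IGFBP7-AS1 was 540.0 CPM after doxorubicin in the first WI-38 experiment, against 234 CPM in its controls, and 36.6 CPM in the repeat, against 14.9 CPM in its controls, although IGFBP7 itself differed far less between the 2 experiments. The low level was found throughout the second WI-38 set and was not particular to the repeat. Group means of IGFBP7-AS1 ran from 14.4 to 50.6 CPM in that set and from 64.6 to 619 CPM in all other groups. The part of IGFBP7-AS1 in the IGFBP7 counts was not tested.

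IGFBP3, the main carrier of IGFs in blood and a target of p53, was higher in 6 comparisons, lower in 1 and did not pass in 2. In irradiated HAEC it reached 66.2, 62.1 and 68.6 CPM, against 28.3 and 26.2 CPM in controls (log2 fold change 1.22 ± 0.044, edgeR adjusted p = 4.93e-15). The HUVEC change was smaller, with 24.4, 24.5 and 23.3 CPM after radiation, against 17.5, 17.5 and 18.7 CPM (log2 fold change 0.44 ± 0.045, edgeR adjusted p = 1.84e-08). In both types no irradiated library overlapped a control.

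In IMR-90, IGFBP3 measured 164 and 170.0 CPM after radiation and 256 and 222 CPM at late passage, against 104 and 94.7 CPM in proliferating cells. Both were higher (log2 fold change 0.70 ± 0.074, edgeR adjusted p = 2.13e-06 for radiation, and 1.22 ± 0.074, edgeR adjusted p = 7.42e-09 for late passage), and irradiated cells were lower than late-passage cells (log2 fold change -0.52 ± 0.073, edgeR adjusted p = 5.39e-04). In WI-38 it rose after doxorubicin, to 379.8 and 375 CPM in the first experiment, against 209 and 209 CPM in controls (log2 fold change 0.89 ± 0.11, edgeR adjusted p = 9.78e-05). The repeat had far lower levels, with 68.4 and 117 CPM, against 14.2 and 29.7 CPM in controls, and again a rise (log2 fold change 2.09 ± 0.31, edgeR adjusted p = 0.00129). HRAS G12V libraries had 33.7 and 36.2 CPM, against 179 and 184 CPM, a level 4.70-fold lower than with the empty vector (log2 fold change -2.23 ± 0.12, edgeR adjusted p = 3.38e-08). Neither radiation nor late passage changed it by the test in WI-38.

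Irradiated WI-38 had 191 and 241 CPM of IGFBP3, against 256 and 279.6 CPM in radiation controls (log2 fold change -0.28 ± 0.30, edgeR adjusted p = 0.576), and late-passage WI-38 had 32.8 and 29.8 CPM, against 33.9 and 30.2 CPM in proliferating cells (log2 fold change -0.061 ± 0.30, edgeR adjusted p = 0.946). The radiation controls, the proliferating cells and the doxorubicin controls of the repeat were all WI-38 at PDL 25 without the senescence treatments, yet their IGFBP3 levels were 268, 32.1 and 21.9 CPM. The spread among these 3 control groups was wider than any IGFBP3 response in this set.

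IGFBP4, an inhibitor of IGF action that PAPPA cleaves, was higher in 5 comparisons and lower in 2. Irradiated HAEC had 155, 146 and 152 CPM, against 90.7 and 84.4 CPM in controls (log2 fold change 0.74 ± 0.035, edgeR adjusted p = 6.03e-13). In HUVEC the levels were 115, 108 and 113 CPM after radiation, against 99.0, 101 and 93.2 CPM (log2 fold change 0.20 ± 0.039, edgeR adjusted p = 1.74e-04), a small change in which no irradiated library overlapped a control. In IMR-90 it went the other way, with 271 and 274 CPM after radiation and 401 and 393 CPM at late passage, against 542 and 523 CPM in proliferating cells (log2 fold change -1.01 ± 0.055, edgeR adjusted p = 2.29e-09 for radiation, and -0.47 ± 0.054, edgeR adjusted p = 5.75e-06 for late passage). Irradiated IMR-90 was also lower than late-passage IMR-90 (log2 fold change -0.54 ± 0.054, edgeR adjusted p = 4.12e-05).

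WI-38 after doxorubicin carried the highest IGFBP4 level among the groups outside the second WI-38 set, and irradiated WI-38 the highest within it. Doxorubicin gave 1153 and 1386 CPM in the first experiment, against 262 and 250.4 CPM in controls, a 5.08-fold rise (log2 fold change 2.34 ± 0.15, edgeR adjusted p = 3.33e-07). Radiation gave 3018 and 3678 CPM, against 961 and 1147 CPM in radiation controls, a 3.24-fold rise (log2 fold change 1.70 ± 0.29, edgeR adjusted p = 0.00112). The repeat of doxorubicin gave 1675 and 2044 CPM, against 870.0 and 761 CPM (log2 fold change 1.20 ± 0.29, edgeR adjusted p = 0.0258). The treated libraries did not overlap their controls in these 3 comparisons. The mitochondrial share of counts was 9.71% and 14.02% in irradiated WI-38, against 6.31% and 6.99% in the radiation controls, and 5.78% and 5.61% after doxorubicin in the repeat, against 3.58% and 5.11% in its controls. The part of this share in the responses of the second WI-38 set was not tested. In the repeat the adjusted p was 0.116 without doxorubicin replicate 2, 0.0964 without control replicate 1 and 0.0722 without control replicate 2.

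With HRAS G12V, IGFBP4 stood at 285 and 309.8 CPM, against 339 and 459 CPM with the empty vector (log2 fold change -0.28 ± 0.14, edgeR adjusted p = 0.138), and the log2 fold change was -0.44, adjusted p = 0.00504 without empty-vector replicate 1 and -0.54, adjusted p = 0.0107 when scaled by library totals. Late-passage WI-38 libraries were far apart, at 573 and 1328 CPM, against 621 and 628 CPM in proliferating cells (log2 fold change 0.57 ± 0.29, edgeR adjusted p = 0.227). Without late-passage replicate 1 the log2 fold change was 1.09, adjusted p = 0.00402, and without replicate 2 it was -0.13, adjusted p = 0.898, so the sign rests on which library is kept. Mitochondrial genes held 8.71% of counts in late-passage replicate 1 and 5.78% in replicate 2, against 3.21% and 4.41% in proliferating cells, and the part of this share was not tested.

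IGFBP5, a matrix-bound IGFBP that PAPPA also cleaves and whose gene is the neighbour of IGFBP2 on chromosome 2, was higher in 2 comparisons and lower in 5. In IMR-90 it fell to 1039 and 1041 CPM after radiation and 1249.8 and 1625 CPM at late passage, against 4040.5 and 3365 CPM in proliferating cells, the highest of the 17 groups. Irradiated IMR-90 was thus 3.67-fold lower (log2 fold change -1.88 ± 0.10, edgeR adjusted p = 3.08e-09) and late-passage IMR-90 2.66-fold lower than proliferating cells (log2 fold change -1.41 ± 0.10, edgeR adjusted p = 4.90e-08). The summed level of the 8 fibroblast markers moved the same way in these libraries. It was 3359.6 CPM after radiation and 5253 CPM at late passage, against 14507 CPM in proliferating cells. The sum alone does not show that each of the 8 markers moved. Their part in the result was not tested. Irradiated cells were lower than late-passage cells (log2 fold change -0.47 ± 0.10, edgeR adjusted p = 0.00953), with an adjusted p of 0.0924 without irradiated replicate 1 and 0.0756 without irradiated replicate 2, and of 0.0547 with DESeq2.

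In WI-38, HRAS G12V lowered IGFBP5 to 393 and 473 CPM, against 1908 and 2559.7 CPM with the empty vector (log2 fold change -2.22 ± 0.15, edgeR adjusted p = 2.12e-07), while the fibroblast markers summed to 1567 CPM, against 8794 CPM. Doxorubicin raised it, to 2211 and 2146 CPM in the first experiment, against 1249 and 1278 CPM in controls (log2 fold change 0.82 ± 0.14, edgeR adjusted p = 9.68e-04), with fibroblast markers at 9357 CPM, against 5528 CPM. In the other WI-38 comparisons the fibroblast list stood at 8300.4 CPM after doxorubicin in the repeat, against 4623 CPM, at 6841 CPM after radiation, against 5344 CPM, and at 3825 CPM at late passage, against 5756 CPM. The part of these marker levels in the IGFBP5 values was not tested. In the repeat IGFBP5 measured 1612 and 2537 CPM after doxorubicin, against 571 and 892 CPM (log2 fold change 1.51 ± 0.31, edgeR adjusted p = 0.0112). This call was lost without doxorubicin replicate 2 (adjusted p = 0.0812) and without control replicate 1 (0.124).

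Irradiated WI-38 overlapped its controls in IGFBP5, with 2047 and 2466 CPM, against 1700.1 and 2169 CPM (log2 fold change 0.25 ± 0.31, edgeR adjusted p = 0.629). Late-passage WI-38 was lower, with 293 and 584 CPM, against 1037 and 859 CPM in proliferating cells (log2 fold change -1.14 ± 0.31, edgeR adjusted p = 0.0259). The adjusted p of the late-passage change was 0.169 without late-passage replicate 1, with a log2 fold change of -0.70, and 0.148 without proliferating replicate 1.

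In endothelial cells IGFBP5 was low, with 5.65, 4.85 and 6.99 CPM in irradiated HAEC, against 10.2 and 5.11 CPM in controls (log2 fold change -0.44 ± 0.17, edgeR adjusted p = 0.0427), and 3.87, 2.56 and 5.23 CPM in irradiated HUVEC, against 4.84, 4.88 and 2.48 CPM (log2 fold change -0.056 ± 0.20, edgeR adjusted p = 0.862). The libraries overlapped in both types. Without HAEC control replicate 1 the HAEC value was 0.12, adjusted p = 0.564, and the adjusted p was 0.123 and 0.152 without irradiated replicates 1 and 2, 0.426 with DESeq2 and 0.102 with library totals. The collagen gene COL3A1 and DCN, the decorin gene, taken from the longer fibroblast list, moved with it between libraries. HAEC control replicate 1 had 10.2 CPM of IGFBP5, 10.8 CPM of COL3A1 and 4.44 CPM of DCN. HAEC control replicate 2 had 5.11, 5.15 and 2.43 CPM of the same 3 genes. In HUVEC, irradiated replicate 2 had 2.56, 4.61 and 1.36 CPM, and control replicate 2 had 4.88, 9.86 and 3.16 CPM. The full fibroblast list, most of it FBN1, was higher after radiation, unlike IGFBP5. It summed to 275 to 289.6 CPM in irradiated HAEC, against 183 to 201 CPM in controls, and to 178 to 192 CPM in irradiated HUVEC, against 154 to 168 CPM. The summed level of the fibroblast list without FBN1 was 14.8 to 31.6 CPM in irradiated and 13.6 to 34.9 CPM in control endothelial libraries, and its part in the IGFBP5 values was not tested.

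IGFBP2, an IGFBP that binds both ligands and is common in fetal tissue, was the only 1 of the 6 with its highest level in endothelium, in HUVEC. It was higher than control in 4 comparisons and lower in 3. Irradiated HUVEC had 59.1, 59.6 and 59.2 CPM, against 82.5, 81.3 and 79.7 CPM in controls (log2 fold change -0.45 ± 0.035, edgeR adjusted p = 1.65e-10), whereas irradiated HAEC had 19.6, 17.9 and 20.9 CPM, against 16.8 and 15.4 CPM (log2 fold change 0.22 ± 0.060, edgeR adjusted p = 0.00505). The groups did not overlap in either type.

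In WI-38, IGFBP2 had some of the largest changes of the 6 members. Doxorubicin gave 33.6 and 31.2 CPM in the first experiment, against 4.59 and 5.53 CPM in controls, a 6.56-fold rise (log2 fold change 2.71 ± 0.20, edgeR adjusted p = 9.63e-07). Radiation gave 7.19 and 11.6 CPM, against 1.29 and 1.63 CPM, a 6.58-fold rise from a low level (log2 fold change 2.72 ± 0.36, edgeR adjusted p = 1.46e-04). The doxorubicin repeat gave 8.21 and 6.38 CPM, against 2.61 and 2.41 CPM (log2 fold change 1.54 ± 0.35, edgeR adjusted p = 0.0181). That last call did not pass without doxorubicin replicate 1 (adjusted p = 0.0833), control replicate 1 (0.105) or control replicate 2 (0.0567). With HRAS G12V the libraries overlapped, at 3.33 and 4.60 CPM, against 4.27 and 6.03 CPM (log2 fold change -0.23 ± 0.19, edgeR adjusted p = 0.356).

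Late-passage WI-38 had 1.92 and 4.52 CPM of IGFBP2, against 2.00 and 2.03 CPM in proliferating cells (log2 fold change 0.64 ± 0.35, edgeR adjusted p = 0.267), with a log2 fold change of 1.16, adjusted p = 0.0205 without late-passage replicate 1 and -0.082, adjusted p = 1 without replicate 2. In IMR-90 it was modestly lower, with 23.2 and 25.3 CPM after radiation and 20.7 and 29.01 CPM at late passage, against 30.1 and 30.8 CPM in proliferating cells (log2 fold change -0.37 ± 0.11, edgeR adjusted p = 0.014 for radiation, and -0.34 ± 0.11, edgeR adjusted p = 0.023 for late passage). Both IMR-90 calls rested on single libraries and on the tool: for radiation the adjusted p was 0.132, 0.0574 and 0.0918 without irradiated replicate 1, proliferating replicate 1 and proliferating replicate 2, and 0.127 with DESeq2. For late passage it was 0.256, 0.0787 and 0.125 without late-passage replicate 1, proliferating replicate 1 and proliferating replicate 2, and 0.197 with DESeq2.

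IGFBP6, which binds IGF2 more tightly than IGF1, changed least often, with 2 comparisons higher, 2 lower and 5 that did not pass. In IMR-90 it was higher, with 92.0 and 95.9 CPM after radiation and 94.7 and 87.7 CPM at late passage, against 47.0 and 53.9 CPM in proliferating cells (log2 fold change 0.85 ± 0.073, edgeR adjusted p = 2.77e-07 for radiation, and 0.81 ± 0.073, edgeR adjusted p = 4.66e-07 for late passage). The 4 smooth muscle markers, among them CNN1, summed to 228 CPM after radiation and 263 CPM at late passage, against 106 CPM in proliferating IMR-90, and MYH11 among them was at 1.18 and 1.31 CPM, against 14.1 CPM. Their part in the IGFBP6 values was not tested. HRAS G12V gave lower levels, 55.2 and 57.2 CPM, against 102 and 132 CPM with the empty vector (log2 fold change -0.91 ± 0.13, edgeR adjusted p = 1.53e-04), and the smooth muscle list was lower too, at 49.9 CPM, against 244 CPM. The same list also had a lower sum in 3 WI-38 comparisons in which IGFBP6 did not pass. It summed to 66.7 CPM after doxorubicin in the first experiment, against 167 CPM in controls, to 399 CPM in irradiated cells, against 975 CPM, and to 238 CPM at late passage, against 491 CPM in proliferating cells.

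In the doxorubicin repeat, where the smooth muscle list stood at 254 CPM, against 479 CPM, IGFBP6 fell to 37.9 and 41.3 CPM, against 165 and 77.5 CPM in controls (log2 fold change -1.61 ± 0.38, edgeR adjusted p = 0.024). Those controls were far apart, and the adjusted p was 0.312 without control replicate 1, 0.101 without doxorubicin replicate 1 and 0.0831 without doxorubicin replicate 2. In the first experiment the libraries overlapped, at 67.8 and 75.4 CPM, against 67.0 and 72.2 CPM (log2 fold change 0.079 ± 0.13, edgeR adjusted p = 0.714). They overlapped as well in irradiated WI-38, at 77.1 and 102 CPM, against 76.8 and 96.1 CPM, in late-passage WI-38, at 34.96 and 93.4 CPM, against 70.4 and 68.0 CPM, and in HUVEC, at 11.1, 10.8 and 12.8 CPM, against 10.7, 11.6 and 11.7 CPM (edgeR adjusted p = 0.914, 0.876 and 0.697 in that order). HAEC had 19.1, 21.3 and 21.4 CPM after radiation, against 23.4 and 19.9 CPM (log2 fold change -0.11 ± 0.058, edgeR adjusted p = 0.129), and -0.19, adjusted p = 0.0267 without HAEC control replicate 2.

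Whether the same stimulus gave the same response in different cells was tested directly, as the difference between 2 responses. Radiation moved the members less in HUVEC than in HAEC, at the same 4 Gy, for IGFBP3 (HUVEC minus HAEC -0.78 ± 0.060, edgeR adjusted p = 1.34e-10), IGFBP7 (-0.68 ± 0.044, edgeR adjusted p = 4.61e-12) and IGFBP4 (-0.53 ± 0.055, edgeR adjusted p = 3.16e-08), and IGFBP2 went in opposite directions (-0.67 ± 0.064, edgeR adjusted p = 7.56e-09). These were 4 of the 6 members, where 18% of all genes differed between the 2 responses, and 1 of the 6 passed with all 37 libraries in 1 fit. The differences were 0.38 (95% interval -0.26 to 1.03) for IGFBP5, which passed with no filter (adjusted p = 0.0401), and 0.15 (-0.030 to 0.34) for IGFBP6.

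The fibroblast lines parted further at 10 Gy. In 4 members the response of WI-38 differed from that of IMR-90, where 19.9% of all genes did. WI-38 minus IMR-90 was 3.01 ± 0.43, edgeR adjusted p = 3.54e-05 for IGFBP2, 2.63 ± 0.36, edgeR adjusted p = 2.62e-05 for IGFBP4, 2.05 ± 0.40, edgeR adjusted p = 0.00105 for IGFBP5 and -1.32 ± 0.21, edgeR adjusted p = 1.68e-04 for IGFBP7. IGFBP2 and IGFBP4 were thus higher after radiation in WI-38 and lower after radiation in IMR-90. The IMR-90 fall of IGFBP2 was small and did not pass with DESeq2 (adjusted p = 0.127) or with all 37 libraries in 1 edgeR fit (0.369). IGFBP5 was lower in irradiated IMR-90 and did not pass in WI-38, and IGFBP7 was higher in both lines but more so in IMR-90. For IGFBP3 the difference was -1.06 ± 0.37, edgeR adjusted p = 0.0515, and for IGFBP6 it was -0.85 (95% interval -1.77 to 0.073). IGFBP3 passed with DESeq2 (adjusted p = 0.0339), with the compared groups alone (0.00485), with no filter (9.93e-04), with all 37 libraries in 1 fit (0.00465) and without WI-38 irradiated replicate 2 (0.0291). IGFBP6 passed with the compared groups alone (0.0396) and with no filter (0.0156). The 2 lines were in library sets of different make-up, so line and set cannot be told apart.

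At late passage, where 11.9% of all genes differed in response, 2 members did. IGFBP7 rose in both lines and by less in WI-38 (WI-38 minus IMR-90 -1.55 ± 0.22, edgeR adjusted p = 5.48e-05), and IGFBP3 rose in IMR-90 with no such change in WI-38 (-1.30 ± 0.37, edgeR adjusted p = 0.0262). The IGFBP3 difference had an adjusted p between 0.0506 (without IMR-90 proliferating replicate 1) and 0.107 (without IMR-90 proliferating replicate 2) when any of 5 libraries was left out, the others being IMR-90 late passage replicate 1, WI-38 late passage replicate 2 and WI-38 proliferating replicate 1, and 0.0808 with library totals. IGFBP4 differed by 1.03 ± 0.36, edgeR adjusted p = 0.073, and passed with DESeq2 (adjusted p = 0.0225), library totals (0.0233), no filter (6.75e-04), all 37 libraries (0.00952) and without WI-38 late passage replicate 1 (1.53e-04). IGFBP2 differed by 0.97 ± 0.42, edgeR adjusted p = 0.164, and passed with no filter (adjusted p = 0.00891), all 37 libraries (0.0454) and without the same library (0.00435). IGFBP6, at -0.96 ± 0.47, edgeR adjusted p = 0.224, passed with no filter (adjusted p = 0.0106) and without WI-38 late passage replicate 2 (0.00341). The late-passage fall of IGFBP5 was -1.14 in WI-38 and -1.41 in IMR-90, a difference of 0.25 (95% interval -0.53 to 1.04).

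Between the 2 doxorubicin experiments in WI-38, where 4.42% of all genes differed in response, 1 member did: IGFBP6 (repeat minus first -1.67 ± 0.46, edgeR adjusted p = 0.0398). This call was lost in each of the 7 fits that left out a library other than control replicate 2 of the repeat, with adjusted p from 0.0544 to 0.312. The other differences were 1.22 ± 0.35, edgeR adjusted p = 0.052 for IGFBP3, -1.13 ± 0.37, edgeR adjusted p = 0.0928 for IGFBP4, -1.15 ± 0.43, edgeR adjusted p = 0.161 for IGFBP2 and 0.71 ± 0.38, edgeR adjusted p = 0.387 for IGFBP5. Which of these passed depended on the setting. IGFBP3 passed with DESeq2 (adjusted p = 0.0186), library totals (0.0211), no filter (0.00101) and all 37 libraries (0.00339), and IGFBP6 did not with library totals (0.0725). IGFBP4 passed with DESeq2 (adjusted p = 0.0325), the compared groups alone (0.0162), no filter (0.00439) and all 37 libraries (0.00835). IGFBP2 passed with the compared groups alone (adjusted p = 0.0173), no filter (0.0239) and all 37 libraries (0.0265). Among the fits with a library left out, IGFBP3 passed without doxorubicin replicate 1 of the repeat (adjusted p = 0.00595) and without control replicate 2 of the repeat (5.53e-04).

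**Figure D4:**
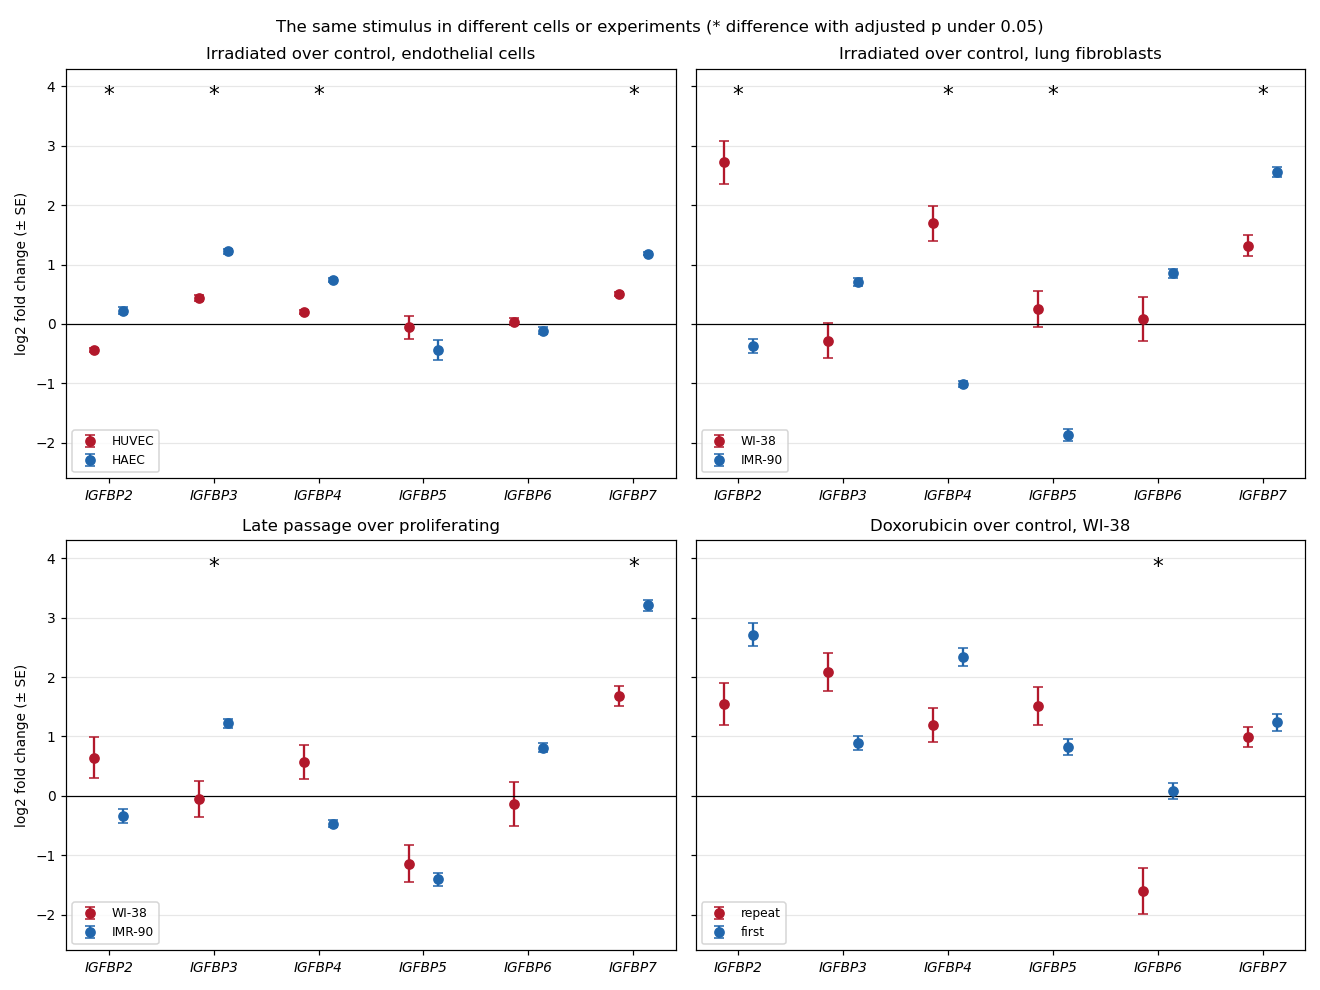
Log2 fold change (± SE) of each gene under the same stimulus in 2 kinds of cell or 2 experiments, 1 panel per pair, with the colours naming the cells or experiment. A star marks a difference between the 2 responses with an edgeR adjusted p under 0.05. After radiation IGFBP4 lies at 1.70 in WI-38 and -1.01 in IMR-90, while IGFBP7 lies above 0 in every panel.

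Oncogenic HRAS and doxorubicin, each with its own control in the first WI-38 experiment, gave different pictures. IGFBP3, IGFBP5 and IGFBP7 were higher after doxorubicin and lower with HRAS G12V. IGFBP2 and IGFBP4 were higher after doxorubicin and did not pass with HRAS G12V. IGFBP6 was lower with HRAS G12V and did not pass after doxorubicin. The HRAS response was lower than the doxorubicin response for all 6 members, where 35.6% of all genes differed between the responses and 14% were lower in the HRAS response. The HRAS minus doxorubicin difference was largest for IGFBP3 (-3.12 ± 0.16, edgeR adjusted p = 8.45e-08), IGFBP5 (-3.04 ± 0.20, edgeR adjusted p = 5.95e-07) and IGFBP2 (-2.94 ± 0.27, edgeR adjusted p = 8.18e-06), followed by IGFBP4 (-2.62 ± 0.21, edgeR adjusted p = 2.39e-06) and IGFBP7 (-2.29 ± 0.20, edgeR adjusted p = 4.80e-06), and smallest for IGFBP6 (-0.99 ± 0.19, edgeR adjusted p = 0.00156). The median difference of the 6 was -2.78 on the log2 scale, against 0.070 over all genes. MKI67 was low in both treatments, at 2.90 ± 1.01 CPM with HRAS G12V, against 39.7 ± 7.73 CPM with the empty vector, and 1.81 ± 0.221 CPM after doxorubicin, against 62.6 ± 3.03 CPM in controls (mean ± SD, n = 2 each). CDKN1A, the p21 cyclin-dependent kinase inhibitor gene, was higher in both, by 2.39 and 1.72 on the log2 scale.

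The rest of the pathway was read from a list of 17 genes: IGFBP1, ligands, receptors, adaptors, the ternary-complex subunit, proteases and protease inhibitors. Ligand RNA was scarce. IGF1 averaged at most 0.275 CPM in any group and passed in none of the comparisons in which it was tested. IGF2 was 18.2 ± 0.199 CPM in irradiated and 26.1 ± 0.858 CPM in late-passage IMR-90, against 1.45 ± 0.0718 CPM in proliferating cells (mean ± SD, n = 2 each, log2 fold change 3.61 ± 0.084, edgeR adjusted p = 6.50e-13 for radiation, and 4.13 ± 0.084, edgeR adjusted p = 1.78e-13 for late passage). In the same libraries IGFBP3, IGFBP6 and IGFBP7 were higher and IGFBP2, IGFBP4 and IGFBP5 lower. In irradiated WI-38 IGF2 was lower, 0.743 ± 0.0646 CPM, against 5.00 ± 1.502 CPM (log2 fold change -2.72 ± 0.35, edgeR adjusted p = 1.01e-04), and in late-passage WI-38 higher, 0.597 ± 0.138 CPM, against 0.245 ± 0.0341 CPM (log2 fold change 1.25 ± 0.35, edgeR adjusted p = 0.029). The receptor IGF1R was lower in irradiated (-1.06 on the log2 scale) and late-passage IMR-90 (-0.70) and with HRAS G12V (-1.59), higher after doxorubicin in the first WI-38 experiment (0.75), and did not pass in the other 5 comparisons, where its log2 fold change lay between 0.020 and 0.35.

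PAPPA, the protease of IGFBP4 and IGFBP5, was among the genes of the list that moved furthest in fibroblasts. After doxorubicin it stood at 665 ± 4.41 CPM in the first WI-38 experiment, against 43.9 ± 1.42 CPM in controls (log2 fold change 3.96 ± 0.13, edgeR adjusted p = 3.16e-09), and at 394 ± 163 CPM in the repeat, against 85.5 ± 20.2 CPM (log2 fold change 2.21 ± 0.26, edgeR adjusted p = 1.94e-04). In irradiated WI-38 it stood at 275 ± 8.19 CPM, against 33.5 ± 0.498 CPM (log2 fold change 3.07 ± 0.27, edgeR adjusted p = 3.65e-06). IGFBP4 was higher in the same 3 comparisons. In IMR-90, PAPPA was lower, at 129 ± 2.81 CPM after radiation and 119 ± 8.90 CPM at late passage, against 591 ± 64.4 CPM in proliferating cells (log2 fold change -2.24 ± 0.077, edgeR adjusted p = 2.53e-11 for radiation, and -2.35 ± 0.078, edgeR adjusted p = 1.33e-11 for late passage), where IGFBP4 and IGFBP5 were lower too. With HRAS G12V it was higher by 0.48 on the log2 scale, and in the endothelial comparisons and late-passage WI-38 it did not pass. Values are means ± SD over 2 libraries per group.

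The stanniocalcins, which inhibit PAPPA, also changed. STC1 was 957 ± 5.09 CPM with HRAS G12V, against 18.5 ± 0.296 CPM with the empty vector (log2 fold change 5.84 ± 0.14, edgeR adjusted p = 3.04e-10), in the comparison where IGFBP3, IGFBP5, IGFBP6 and IGFBP7 were lower. It was also higher in irradiated WI-38, 439 ± 29.8 CPM, against 57.1 ± 0.0932 CPM (log2 fold change 2.97 ± 0.23, edgeR adjusted p = 1.08e-06), and in late-passage WI-38, 968 ± 27.9 CPM, against 263 ± 3.74 CPM (log2 fold change 1.86 ± 0.22, edgeR adjusted p = 6.02e-05), lower in irradiated HAEC (-2.35 on the log2 scale) and in irradiated (-0.66) and late-passage IMR-90 (-1.15), and higher after doxorubicin in both WI-38 experiments (1.40 in the first and 0.90 in the repeat). STC2 rose to 636 ± 35.2 CPM after doxorubicin in the first experiment, against 157 ± 9.74 CPM (log2 fold change 2.06 ± 0.12, edgeR adjusted p = 1.80e-07), and in irradiated WI-38 to 456 ± 27.2 CPM, against 148 ± 8.59 CPM (log2 fold change 1.65 ± 0.17, edgeR adjusted p = 1.49e-05). STC2 was also higher in irradiated IMR-90 (0.57), in late-passage IMR-90 (0.72), with HRAS G12V (1.001) and in the doxorubicin repeat (0.69). In endothelial cells STC2 was lower after radiation, by -0.44 on the log2 scale in HAEC and -0.68 in HUVEC. ADAM12, another protease of IGFBPs, was higher in late-passage IMR-90 (0.53), after doxorubicin in the first WI-38 experiment (0.81), with HRAS G12V (0.73), in the doxorubicin repeat (2.20), in irradiated WI-38 (1.60) and in late-passage WI-38 (1.54), and lower in irradiated HAEC (-0.97). Its level in HAEC was 1.01 CPM after radiation, against 1.91 CPM in controls. STC1 in HAEC was also low, at 0.377 ± 0.0766 CPM after radiation, against 1.85 ± 1.55 CPM in controls that were far apart.

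Among the other genes of the list, IGF2R, which clears IGF2, was higher in irradiated HAEC (0.61), in irradiated HUVEC (0.45), in late-passage IMR-90 (0.30), after doxorubicin in the first WI-38 experiment (1.22), with HRAS G12V (1.35) and in irradiated WI-38 (1.48) on the log2 scale. HTRA1, a serine protease, was higher in irradiated HUVEC (0.32) and after doxorubicin in the first WI-38 experiment (0.47), and lower with HRAS G12V (-0.39). The insulin receptor INSR was higher in irradiated HAEC (0.43), after doxorubicin in the first WI-38 experiment (0.46) and in irradiated WI-38 (0.76), and lower in irradiated IMR-90 (-1.11), in late-passage IMR-90 (-0.90), with HRAS G12V (-1.33) and in late-passage WI-38 (-0.996). The adaptor gene GRB10 was higher with HRAS G12V (0.58), and lower in irradiated HUVEC (-0.33), in irradiated IMR-90 (-0.71), in late-passage IMR-90 (-0.59), in irradiated WI-38 (-0.70) and in late-passage WI-38 (-0.73), and IRS1, another adaptor gene, was lower in irradiated HAEC (-1.05), in irradiated IMR-90 (-0.39), in late-passage IMR-90 (-0.36), after doxorubicin in the first WI-38 experiment (-0.45), with HRAS G12V (-0.46), in irradiated WI-38 (-0.59) and in late-passage WI-38 (-0.59). Counted over the list, 5 higher and 5 lower of 17 tested genes passed in irradiated HAEC, against 39.7% of all genes, 4 higher and 2 lower of 16 in irradiated HUVEC, against 38.7%, 3 higher and 7 lower of 16 in irradiated IMR-90, against 49.1%, and 6 higher and 7 lower of 16 in late-passage IMR-90, against 50.1%. In WI-38 the counts were 9 higher and 1 lower of 17 after doxorubicin in the first experiment, against 26.8% of all genes, 9 higher and 4 lower of 17 with HRAS G12V, against 45.9%, 4 higher and 0 lower of 16 in the doxorubicin repeat, against 5.45%, 6 higher and 3 lower of 16 after radiation, against 15%, and 3 higher and 3 lower of 16 at late passage, against 12.6%. The list's median log2 fold change ran from -0.43 in irradiated IMR-90 to 0.58 with HRAS G12V, while that of all genes lay between -0.064 and 0.071 over the 9 comparisons. The liver-type member IGFBP1 was low, between 3.19 and 4.59 CPM in endothelial groups and at most 0.204 CPM in any fibroblast group. IRS1 was low in HAEC, with an average log2 CPM of -0.76.

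A second list held 9 genes that carry an IGFBP-type domain without being IGF carriers, 6 of them of the CCN family of matrix signalling proteins. CCN1 was higher in irradiated HAEC (0.80), in irradiated HUVEC (0.11), in irradiated IMR-90 (2.93), in late-passage IMR-90 (2.96) and in late-passage WI-38 (1.004), and lower with HRAS G12V (-1.31). CCN2 was higher in irradiated HAEC (0.73), in irradiated IMR-90 (1.22), in late-passage IMR-90 (1.52), in the doxorubicin repeat (1.44), in irradiated WI-38 (0.87) and in late-passage WI-38 (1.59), and lower with HRAS G12V (-0.97). CCN1 was 108 ± 1.58 CPM in irradiated and 109.9 ± 0.606 CPM in late-passage IMR-90, against 13.7 ± 2.16 CPM in proliferating cells (n = 2 each), and CCN2 was 1036 ± 6.31 CPM (n = 3) in irradiated HAEC, against 604 ± 1.73 CPM (n = 2) in controls. ESM1, an endothelial proteoglycan gene, was higher in irradiated HAEC (0.38) and with HRAS G12V (6.65), and lower in irradiated HUVEC (-0.54) and after doxorubicin in the first WI-38 experiment (-1.23), and stood at 0.954 ± 0.0996 CPM after doxorubicin, against 2.30 ± 0.206 CPM in controls, and at 27.8 ± 2.63 CPM with HRAS G12V, against 0.302 ± 0.0476 CPM with the empty vector. CCN4 was higher after doxorubicin in the first WI-38 experiment (1.93), in the doxorubicin repeat (2.06), in irradiated WI-38 (1.57) and in late-passage WI-38 (1.25), and lower in irradiated IMR-90 (-2.01), in late-passage IMR-90 (-1.08) and with HRAS G12V (-4.56). KAZALD1 was higher in irradiated HAEC (0.71) and in irradiated HUVEC (0.52), and lower in irradiated IMR-90 (-0.78), in late-passage IMR-90 (-0.53), with HRAS G12V (-2.30) and in late-passage WI-38 (-1.45). Over the list, 5 higher and 0 lower of 7 tested genes passed in irradiated HAEC, against 39.7% of all genes, and 2 higher and 2 lower of 8 in irradiated HUVEC, against 38.7%. In IMR-90 the counts were 2 higher and 4 lower of 8 after radiation, against 49.1% of all genes, and 2 higher and 4 lower of 8 at late passage, against 50.1%. In WI-38 they were 3 higher and 1 lower of 8 after doxorubicin, against 26.8% of all genes, 2 higher and 5 lower of 8 with HRAS G12V, against 45.9%, 2 higher and 0 lower of 8 in the doxorubicin repeat, against 5.45%, 3 higher and 0 lower of 8 after radiation, against 15%, and 4 higher and 1 lower of 8 at late passage, against 12.6%. Medians ran from -1.14 with HRAS G12V to 0.82 at late passage in WI-38.

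**Figure D5:**
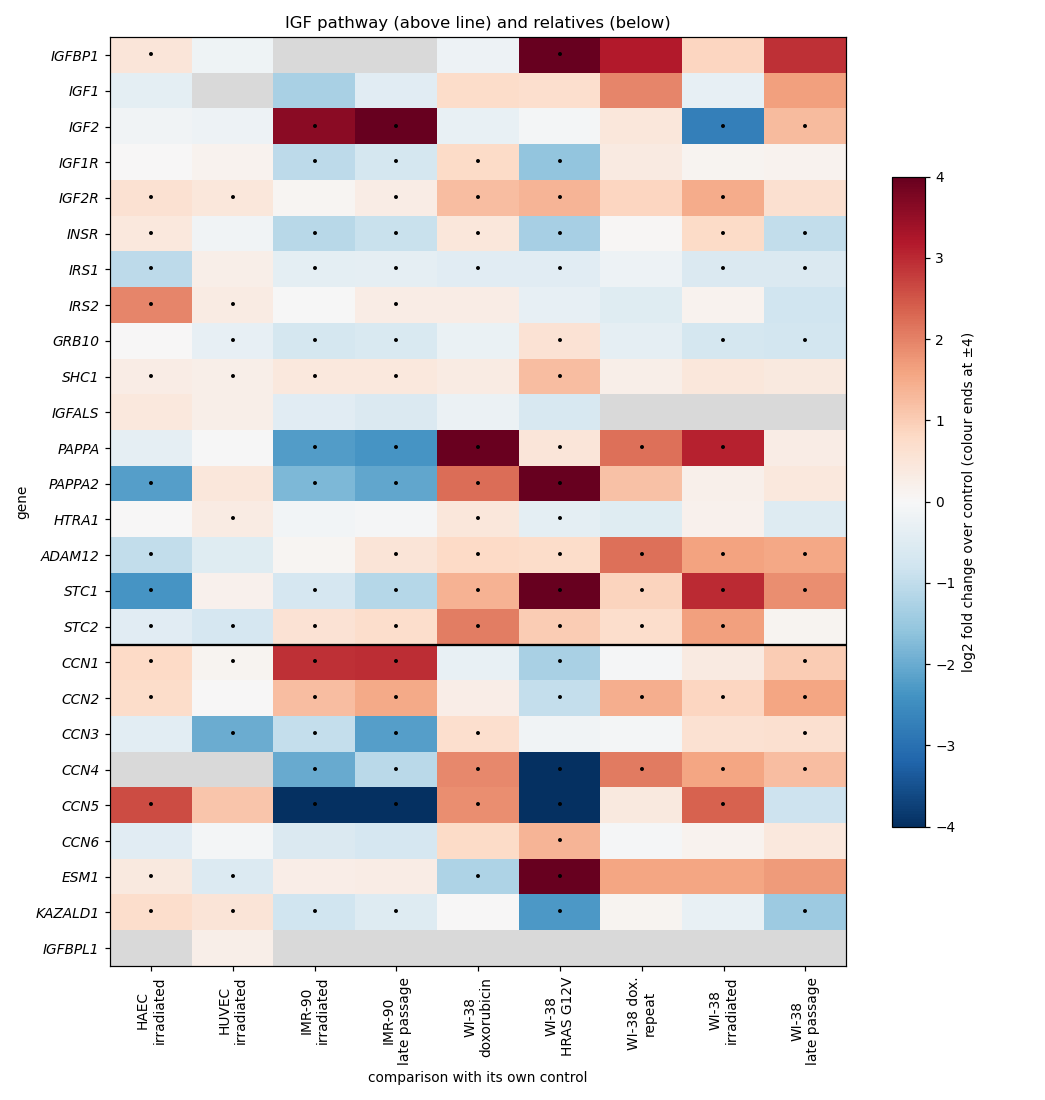
Log2 fold change (colour, ends at ±4) of 17 IGF pathway genes above the line and 9 genes with an IGFBP-type domain below it, in 9 comparisons of a treated or late-passage group over its own control. Dots mark an edgeR adjusted p under 0.05 and grey cells were not tested for low counts. PAPPA reads 3.96 after doxorubicin in the first WI-38 experiment and -2.24 in irradiated IMR-90, and IGF2, at 4.13 in late-passage IMR-90, passes the end of the colour scale.

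The genes whose pattern was most like each member's were looked for over the 17 group means on a log2(CPM + 0.5) scale, among 22587 genes with a symbol. The groups share controls, cell lines and library sets, so these correlations describe the groups and carry no test. IGFBP5 was most like the collagen gene COL1A1 (Pearson r = 0.989) and AC007563.2 (r = 0.986), a gene on the opposite strand whose exons overlap 298 bases of its own (4.63%) and whose level stayed at or below 197 CPM. IGFBP4 was most like EXT1 (r = 0.966) and WBP1 (r = 0.953), and IGFBP6 like CNN1 (r = 0.947) and PGM5 (r = 0.942). The likeness was weaker for IGFBP2, with FMR1-IT1 (r = 0.897) and SLC12A7 (r = 0.887), for IGFBP3, with FSTL1 (r = 0.895) and SLC45A1 (r = 0.870), and for IGFBP7, with PITPNM3 (r = 0.821) and SYT15-AS1 (r = 0.797). Among the members, IGFBP5 and IGFBP6 were most alike (r = 0.891), IGFBP4 and IGFBP5 came next (r = 0.784), and the neighbours IGFBP2 and IGFBP5 had r = -0.495. Of all stretches of 31 bases in a member's transcripts, 16.3% in IGFBP7, 5.02% in IGFBP2 and 4.18% in IGFBP5 also occurred in another gene's transcripts, read on either strand. None did in IGFBP3, IGFBP4 and IGFBP6, so counting could split such reads between genes for the first 3. Because both strands were searched, the shares of IGFBP5 and IGFBP7 include the opposite-strand exon overlaps given above and are not a separate source from them.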

How the data were processed

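RNA-seq covered 37 libraries of human cells in 17 groups. The authors deposited whole-number read counts per gene, 1 table per library, for 57773 Ensembl gene identifiers, from paired-end libraries of rRNA-depleted RNA per the labels. Per the submitters' processing notes the tools included bcl2fastq, cutadapt, STAR 2.4 and featureCounts and the build was hg19, while their settings, the gene annotation and the handling of strand were not stated there. Symbols were matched for 52338 identifiers, 6 of 6 members among them.

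Each set (HAEC, HUVEC, IMR-90, WI-38 first and second) was filtered with filterByExpr and fitted with edgeR 4.0.16 in R 4.3.3 (TMM scaling, quasi-likelihood test), and sets were joined for differences between them. P-values were adjusted over all genes tested (Benjamini-Hochberg, threshold 0.05). A standard error is the log2 fold change over the square root of F. Levels are CPM on a TMM scale over all libraries, and SDs are over the libraries of a group. Levels per kb use the exon length of GENCODE 29. Alternatives were DESeq2 1.42.0, other scalings, no filter, other sets of libraries in the fit, the replicate number as a block and leaving out each library. The code was tested on simulated data. Replicates within each group were further apart than read sampling alone gives (chi-square per degree of freedom 8.50 to 534), so none was counted as a repeat deposit.

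The members and lists were chosen with earlier results of these data known. Named list genes are the called genes with an average log2 CPM of at least 0 and the largest change, up to 3 a direction in each comparison, with IGF1, IGF2 and IGF1R; further values of a named gene in other comparisons, and of its family, were added after the values were seen. Epithelial markers summed to 109 to 179 CPM in endothelial and 3.74 to 42.3 CPM in fibroblast libraries, and leukocyte markers to at most 3.49 CPM. Totals per library are given with the results; the fewest counts behind a member in any library were 404, for IGFBP2 in WI-38.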

Additional observations from a re-analysis of the deposited data

Results flagged for a closer look

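The response to the same stimulus differed between cells or experiments by the edgeR test of the difference for 11 results. After 4 Gy, HUVEC minus HAEC was -0.67 for IGFBP2, -0.78 for IGFBP3, -0.53 for IGFBP4 and -0.68 for IGFBP7 on the log2 scale. After 10 Gy, WI-38 minus IMR-90 was 3.01 for IGFBP2, 2.63 for IGFBP4, 2.05 for IGFBP5 and -1.32 for IGFBP7. At late passage, WI-38 minus IMR-90 was -1.30 for IGFBP3 and -1.55 for IGFBP7. Between the doxorubicin experiments in WI-38, the repeat minus the first was -1.67 for IGFBP6. WI-38 and IMR-90 differ in line and in library set, which cannot be told apart. No group had the 4 libraries needed to look for a library far from the others.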

How the results depend on the processing

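Of the 54 member responses, all 54 kept direction and side of the threshold with DESeq2 size factors, with the compared groups alone, with no filter and with the replicate block, 51 with the DESeq2 Wald test, 49 with library totals and 43 with all 37 libraries in 1 fit. IGFBP3 and IGFBP7 kept every called response when single libraries were left out. Library totals shifted the median of all genes by over 0.1 in several comparisons, among them -0.25 in irradiated IMR-90, -0.20 in late-passage IMR-90, -0.17 in the first doxorubicin experiment, -0.28 with HRAS G12V and -0.12 in irradiated WI-38, and turned 4 values that had not passed: IGFBP6 to -0.092 in the first doxorubicin experiment, -0.042 in irradiated WI-38 and -0.0090 in irradiated against late-passage IMR-90, and IGFBP3 to 0.0031 in late-passage WI-38.

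With all 37 libraries in 1 fit, members called were 3 in HAEC, 1 in HUVEC, 4 in late-passage WI-38, 1 in irradiated against late-passage IMR-90, 1 in HUVEC minus HAEC, 4 in WI-38 minus IMR-90 at late passage and 4 in the repeat minus first doxorubicin response. All genes called were then 3942 in HAEC, 3269 in HUVEC, 9125 and 9314 in irradiated and late-passage IMR-90, 6464 in the doxorubicin repeat, 10824 in irradiated and 9148 in late-passage WI-38, 289 in irradiated against late-passage IMR-90, 733 in HUVEC minus HAEC, 6848 in WI-38 minus IMR-90 at late passage, 4149 in repeat minus first and 3823 between HAEC and HUVEC controls. The 2 further lists had 5 genes called in HUVEC, 11 in the repeat and 17 in late-passage WI-38. With the compared groups alone 12696 genes were called in the first doxorubicin experiment and 3 members in repeat minus first. With no filter 3135 genes were called in the repeat, 5 members in WI-38 minus IMR-90 at late passage and 4 in repeat minus first. The DESeq2 Wald test called 3609 genes in the repeat, and 2930 genes and 3 members in repeat minus first. The cause of these changes was not tested.

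Same-numbered libraries correlated in their deviations at 0.64 with HRAS G12V, 0.43 in irradiated WI-38, -0.19 in late-passage WI-38 and -0.30 to 0.092 elsewhere, so the numbers were not taken as pairs. With the replicate block 2 members were called in repeat minus first, IGFBP3 at 1.24, adjusted p = 0.0291 among them, IGFBP3 passed in WI-38 minus IMR-90 after radiation (-1.07, adjusted p = 0.0369), and IGF1 was 0.045 in irradiated HAEC, and all 54 member responses kept their call. Crossing the numbers in late-passage WI-38, a choice made after seeing the data, gave 3765 genes and 2 members called.

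Leaving out single libraries gave 2 to 4 members called in the doxorubicin repeat, 1 to 3 in late-passage WI-38, 1 to 4 in WI-38 minus IMR-90 at late passage and 0 to 2 in repeat minus first. All genes called ranged over 4479 to 4740 in the first doxorubicin experiment, 612 to 2498 in the repeat, 2568 to 6454 in irradiated and 1876 to 4209 in late-passage WI-38, 1136 to 3448 in irradiated against late-passage IMR-90, 2837 to 4899 in WI-38 minus IMR-90 at late passage and 988 to 2249 in repeat minus first. The 2 further lists had 8 to 10 genes called in the first doxorubicin experiment, 6 to 12 in irradiated and 5 to 9 in late-passage WI-38. Values that had not passed, or IGFBP5 in HAEC, changed sign in some of these fits. For IGF1 the range was -1.02 to 1.14 in irradiated HAEC, -0.24 to 1.30 in the first doxorubicin experiment and -2.63 to 1.05 in irradiated WI-38. For IGF1R the range was -0.028 to 0.053 in irradiated HAEC. For IGF2 the range was -0.82 to 1.70 in irradiated HAEC and -0.23 to 0.046 in HRAS G12V. For IGFBP2 the range was -0.25 to 0.22 in irradiated against late-passage IMR-90 and -0.082 to 1.16 in late-passage WI-38. For IGFBP3 the range was -0.12 to 0.046 in late-passage WI-38. For IGFBP4 the range was -0.13 to 1.09 in late-passage WI-38. For IGFBP5 the range was -0.81 to 0.12 in irradiated HAEC, -0.33 to 0.17 in irradiated HUVEC, -0.21 to 0.72 in the HUVEC minus HAEC radiation response and -0.29 to 0.70 in the WI-38 minus IMR-90 late-passage response. For IGFBP6 the range was -0.046 to 0.088 in irradiated HUVEC, -0.019 to 0.10 in irradiated against late-passage IMR-90, -0.020 to 0.15 in the first doxorubicin experiment, -0.16 to 0.26 in irradiated WI-38 and -0.996 to 0.43 in late-passage WI-38.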

Other observations

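Control WI-38 at PDL 25 stood in 5 groups, of which the empty-vector cells had also received virus and puromycin. The first and second set differ in RNA make-up, so levels can be set side by side only within a set. IGFBP3 averaged 268, 32.1 and 21.9 CPM in the radiation controls, the proliferating cells and the doxorubicin controls of the second set, and 209 and 182 CPM in the doxorubicin controls and empty-vector cells of the first. IGFBP4 in the same order was 1054, 624 and 816 CPM in the second set and 256 and 399 CPM in the first. IGFBP7 was 350.1, 294 and 298 CPM in the second set and 636 and 642 CPM in the first, so its 3 controls of the second set lay close together where those of IGFBP3 did not.

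TEK, an angiopoietin receptor gene of endothelium, was counted in WI-38 and IMR-90 as well and is named here after its values were seen. It averaged 252 CPM after doxorubicin, against 104 CPM in controls of the first WI-38 experiment, 309.9 CPM, against 119 CPM in the repeat, and 11.03 CPM with HRAS G12V, against 78.8 CPM with the empty vector. In IMR-90 it averaged 80.2 CPM after radiation and 74.9 CPM at late passage, against 225 CPM in proliferating cells. IGFBP1 averaged 0.204 CPM with HRAS G12V and was at 0 in both empty-vector libraries.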
